A study of Homo sapiens with 6 samples.

Results

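The fatty acid synthesis and desaturation genes are 10 genes chosen by name: ACLY, ACACA, ACACB, FASN, SCD, ELOVL6, FADS1, FADS2, SREBF1 and ACSS2. The choice was made with earlier results of these data known. The 10 genes were found by symbol among the 21134 genes of the table. All 10 passed the filter on low counts that left 14926 genes for testing. RNA was sequenced from hiPSC-CMs, cardiomyocytes differentiated from pluripotent stem cells, in 3 groups of 2 libraries. The control cells were untreated, the alcohol cells received 100 mM alcohol for 24 h, and the co-treated cells received 100 mM alcohol with 1 μM losartan, an angiotensin receptor blocker, for the same 24 h. All 3 groups carry the same line label, H9, known as an embryonic rather than an induced stem cell line, so the groups come from 1 genetic background. The labels do not say whether the 2 replicates of a group were separate cultures, so the p-values measure the spread between these samples, which may be technical.

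New fatty acids are built in the cytosol from acetyl-CoA. ACLY makes it from citrate that leaves the mitochondria, and ACSS2 makes it from acetate, an end product of alcohol breakdown. ACACA and ACACB carboxylate acetyl-CoA to malonyl-CoA, which FASN extends to palmitate, while the ACACB product at the mitochondrial surface also restrains fatty acid oxidation. ELOVL6 lengthens palmitate, SCD puts the first double bond into saturated chains, and FADS1 and FADS2 desaturate the polyunsaturated ones. SREBF1 encodes the transcription factor that drives most of these genes when it is released from its membrane anchor. In the heart, which lives mainly by burning fatty acids, the route runs at a low rate compared with liver or fat.

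SCD, FASN, FADS2 and ACLY had the largest differences among the 10, and all were lower in both alcohol libraries than in both control libraries. None of the 10 genes passed the adjusted threshold in any comparison with the edgeR setting used for the results below. SCD passed it for alcohol against control in some other settings, among them edgeR with at least 10 counts in every library. Losartan co-treatment went with an SCD level between those of the other groups, whereas FASN and ACLY had nearly the same mean level with and without losartan. ACSS2, ACACB and SREBF1 differed little between the groups.

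The promoters of SCD, ACLY and FADS1 are shown because these genes act at different steps of the route and differed to unlike degrees. The 250 bases before the transcription start are from RefSeq (GRCh38.p14), read 5′ to 3′ on the strand of the gene, with CCAAT and GGGCGG on either strand in capitals. SCD lies on the plus strand at chr10:100346983-100347232, ACLY on the minus strand at chr17:41919023-41919272 and FADS1 on the minus strand at chr11:61817004-61817253. The SCD and FADS1 windows adjoin the ends of their genes. The ACLY gene spans 41866917 to 41930545, so its window lies inside the gene and precedes an internal start.
SCD: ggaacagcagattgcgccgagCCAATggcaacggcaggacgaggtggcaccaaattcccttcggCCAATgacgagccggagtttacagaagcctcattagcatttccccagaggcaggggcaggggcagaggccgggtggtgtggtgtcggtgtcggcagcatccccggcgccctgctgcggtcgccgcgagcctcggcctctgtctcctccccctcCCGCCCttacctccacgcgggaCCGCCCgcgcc
ACLY: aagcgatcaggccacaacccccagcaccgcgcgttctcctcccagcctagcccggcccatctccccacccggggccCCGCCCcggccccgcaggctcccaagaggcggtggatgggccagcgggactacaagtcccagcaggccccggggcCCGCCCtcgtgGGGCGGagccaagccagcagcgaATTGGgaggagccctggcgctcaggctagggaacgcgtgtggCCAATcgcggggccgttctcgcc
FADS1: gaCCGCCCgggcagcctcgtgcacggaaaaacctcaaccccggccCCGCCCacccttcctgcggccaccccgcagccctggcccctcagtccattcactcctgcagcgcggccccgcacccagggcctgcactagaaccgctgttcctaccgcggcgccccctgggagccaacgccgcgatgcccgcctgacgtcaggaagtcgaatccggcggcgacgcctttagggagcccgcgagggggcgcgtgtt
The SCD window holds CCAAT on the plus strand at -229 and -186 from the start and GGGCGG on the minus strand at -33 and -11. The first of 2 ACLY windows holds CCAAT at -65 on the minus strand and at -23 on the plus strand. It holds GGGCGG at -174 and -99 on the minus strand and at -88 on the plus strand. The FADS1 window holds no CCAAT and holds GGGCGG on the minus strand at -248 and -205. In none of these 3 windows did a CCAAT match overlap a GGGCGG match.

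RefSeq windows were found for 9 of the 10 genes, with no entry for FASN. In the first window of each, CCAAT was present in 3 of 9 (SCD, ACLY and ACSS2), against 32.0% of all 35116 windows of this length. GGGCGG was present in 7 of 9, against 42.6%. The sterol regulatory element written as TCACNCCAC was present in 0 of the 15 windows of these genes, against 0.883% of all windows, and the E-box CACGTG in 0 of 15, against 6.34%. Both strands were searched, and a match or its absence in these letters describes the window only. With shares this low over all windows, 0 of 15 cannot show that these genes lack either element.

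By NCBI RefSeq (GRCh38.p14) ACLY, ACACA, FASN and SREBF1 lie on chromosome 17, ACACB on chromosome 12, ELOVL6 on chromosome 4, SCD on chromosome 10 and ACSS2 on chromosome 20. FADS1 (61799627 to 61817003, minus strand) and FADS2 (61816203 to 61867354, plus strand) overlap head to head on chromosome 11. In the GENCODE v29 annotation their exons share 490 bases. SREBF1 shares 556 exonic bases with RAI1 on the opposite strand, ACLY shares 156 with the antisense gene AC125257.2, and FADS2 shares 49 with FEN1 on the same strand. The sources used here do not state whether reads were counted by strand, so reads in these stretches cannot be assigned with certainty. For FADS2 and FEN1, strand would not separate them.

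The libraries held 4898287 to 5051448 expected counts, and 3 counts correspond to 0.594 to 0.612 CPM (counts scaled to the library's total). Each library correlated with the others at a mean Pearson r of 0.971 to 0.975 over genes. All 13 cardiomyocyte markers were above 1 FPKM (expected counts scaled by transcript length and library size) in every library. Their summed FPKM was 32200 and 32900 in the control libraries, 30600 and 23200 in the alcohol libraries, and 26100 and 28900 in the co-treated libraries. Of markers of cells that make much fat, the 8 hepatocyte genes summed to 44.5 to 45.9 FPKM in control, 56.8 to 61.1 under alcohol and 56.1 to 60.4 under co-treatment. The 4 adipocyte genes listed of 6 summed to 1.01 to 1.98 FPKM, with FABP4 and CIDEC not listed. The 7 fibroblast genes summed to 465 and 421 in control, 515 and 481 under alcohol and 517 and 466 under co-treatment. The 5 endothelial genes summed to 6.86 and 5.88 in control, 7.43 and 8.53 under alcohol and 8.9 and 10.5 under co-treatment. In every exposed library the cardiomyocyte sum was below, and the hepatocyte, fibroblast and endothelial sums were above, those of both control libraries. The highest cardiomyocyte marker, MYL7, weighs most in that sum, at 14512.29 and 16179.77 in control and 12612.14 and 9321.12 under alcohol. TNNT2, MYL7, MYL3 and NPPA were below both control libraries in every exposed library. RYR2 and PLN were above both in every exposed library, and the other cardiomyocyte markers were mixed. KDR was the only endothelial gene, and COL1A2 the only fibroblast gene, above both control libraries in every exposed library. Among the hepatocyte genes AFP, APOA1, TTR and SERPINA1 were, and the others, ALB among them, were not. The 5 pluripotency genes summed to 11.4 to 18.9. None of these markers passed the adjusted threshold, and their part in the results was not tested. In bulk RNA, fewer cells of a type and less RNA per cell cannot be told apart.

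On the FPKM scale, which allows levels of different genes to be compared, SCD had the highest mean over the 6 libraries at 67.3. FADS1 followed at 52.1, FADS2 at 41.4, ACLY at 30.5, ACSS2 at 25.8, FASN at 18.4, ELOVL6 at 18.2, ACACB at 14.3, ACACA at 11.4 and SREBF1 at 6.4. FASN and ELOVL6 were not separated, since their library values overlapped in every group. SCD and FADS1 overlapped under alcohol, where the mean of FADS1 (45.0) was above that of SCD (44.5), so the first rank did not hold in that group. Of the other neighbours, FADS1 and FADS2 overlapped in control, ACLY and ACSS2 in both exposed groups, ACSS2 and FASN in control, ELOVL6 and ACACB under alcohol, and ACACB and ACACA in control. SCD ranked 918th and SREBF1 8590th of the 14926 genes tested. The lowest count behind any of these values was 135, for SREBF1 in alcohol replicate 2.

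The first comparison asked what alcohol changed. SCD was at 81.4 and 88.77 FPKM in the control libraries, 54.05 and 34.97 in the alcohol libraries, and 72.99 and 71.68 in the co-treated libraries. The groups did not overlap, and the alcohol replicates were farther apart than those of the other groups. The difference between alcohol and control was -0.96 on the log2 scale (SE 0.18), a fitted fold of 0.512, with an adjusted p of 0.0684 by edgeR's quasi-likelihood test. Leaving out alcohol replicate 2 gave -0.65 and leaving out alcohol replicate 1 gave -1.35. Over 14 other settings the adjusted p ran from 7.45e-05 to 0.468 and was under 0.05 in 5.

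FASN, the multienzyme that assembles palmitate, was at 22.57 and 25.88 FPKM in the control libraries, 17.17 and 13.05 with alcohol, and 18.81 and 13.22 with losartan added. Both exposed groups were below both control libraries and overlapped each other. The log2 difference between alcohol and control was -0.71 (SE 0.17, adjusted p = 0.147), and 2 of 14 other settings gave an adjusted p under 0.05. ACLY, the citrate-cleaving enzyme at the head of the route, was at 34.78 and 41.58 FPKM in control libraries, 29.22 and 23.31 under alcohol and 24.5 and 29.74 under co-treatment. It showed the same arrangement as FASN, with a log2 difference of -0.57 (SE 0.15, adjusted p = 0.179) between alcohol and control.

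FADS2, which opens the polyunsaturated branch, was at 44.01 and 55.53 FPKM in control libraries, 39.04 and 29.84 under alcohol and 42.22 and 37.8 under co-treatment. Its alcohol libraries were below its control libraries, with a log2 difference of -0.58 (SE 0.16, adjusted p = 0.179). FADS1, which acts later in that branch, was at 53.51 and 59.47 FPKM in control libraries, 48.0 and 42.02 under alcohol and 54.52 and 54.84 under co-treatment. On FPKM the alcohol libraries alone stood below the control range, by -0.36 (SE 0.12, adjusted p = 0.292) on the log2 scale. ELOVL6, the elongase of palmitate, was at 17.86 and 24.24 FPKM in control libraries, 16.4 and 15.3 under alcohol and 16.35 and 18.84 under co-treatment. The log2 difference between alcohol and control was -0.47 (SE 0.16, adjusted p = 0.28), and the control replicates differed from each other by more than the alcohol replicates did.

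Both carboxylases differed less between alcohol and control than the 6 genes above. ACACA, the cytosolic form that supplies FASN, was at 10.22 and 12.61 FPKM in control libraries, 9.81 and 9.67 under alcohol and 13.04 and 13.08 under co-treatment. Its alcohol libraries were just below the control range, with a log2 difference of -0.24 (SE 0.13, adjusted p = 0.52). ACACB, the form at the mitochondria, was at 12.53 and 14.58 FPKM in control libraries, 13.25 and 16.19 under alcohol and 15.72 and 13.82 under co-treatment. All 3 groups overlapped, and the log2 difference between alcohol and control was 0.08 (SE 0.13, adjusted p = 0.875).

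ACSS2, the acetate-activating enzyme, was at 24.85 and 23.97 FPKM in control libraries, 25.46 and 25.07 under alcohol and 28.06 and 27.22 under co-treatment. The alcohol libraries were above control on FPKM but overlapped it on CPM, and the log2 difference was 0.01 (SE 0.12, adjusted p = 0.995). SREBF1 was at 6.7 and 6.21 FPKM in control libraries, 6.5 and 5.47 under alcohol and 7.91 and 5.63 under co-treatment. All groups overlapped, with a log2 difference of -0.15 (SE 0.19, adjusted p = 0.832) between alcohol and control. These are transcript levels, and the release of the SREBF1 protein was not measured.

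**Figure D1:**
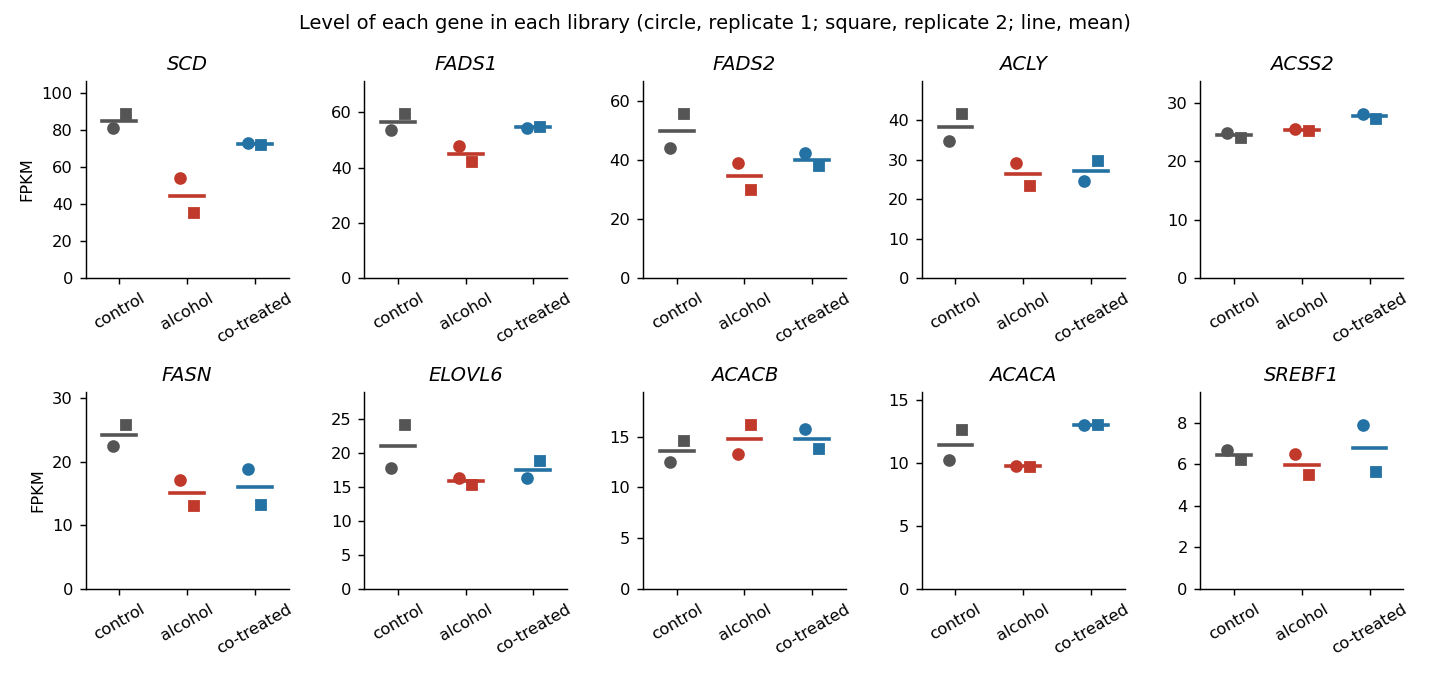
FPKM of each of the 10 genes (vertical axis, starting at 0) in the 2 libraries of each group (horizontal axis), with circles for replicate 1, squares for replicate 2 and lines for the mean. SCD runs from 81.4 and 88.77 in control to 54.05 and 34.97 in alcohol, while ACSS2 and ACACB stay within a narrow range.

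With edgeR 0 of the 10 genes were called for alcohol against control, against 0.067% of all genes tested. DESeq2 called 2 of the 10 and 68 genes in all. At an unadjusted p under 0.05, 6 of 10 were lower (SCD, FASN, ACLY, FADS2, ELOVL6 and FADS1), against 5.78% of all genes, and 0 were higher. Both the genes and this count were chosen with the data known, so the count describes these libraries only. Without alcohol replicate 2 this count was 4, and it was also 4 without control replicate 2. On FPKM 7 of 10 were below control without overlap, against 17.7% of all genes, and 1 was above it (ACSS2), against 24.7%. The median log2 difference of the 10 was -0.42, and that of all genes was -0.0033. Without control replicate 2 the median of the 10 was -0.27. On FPKM alcohol replicate 2 was the lowest of the 6 libraries for 8 of the 10 genes and control replicate 2 the highest for 6. Alcohol replicate 2 also had the lowest summed level of cardiomyocyte markers.

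**Figure D2:**
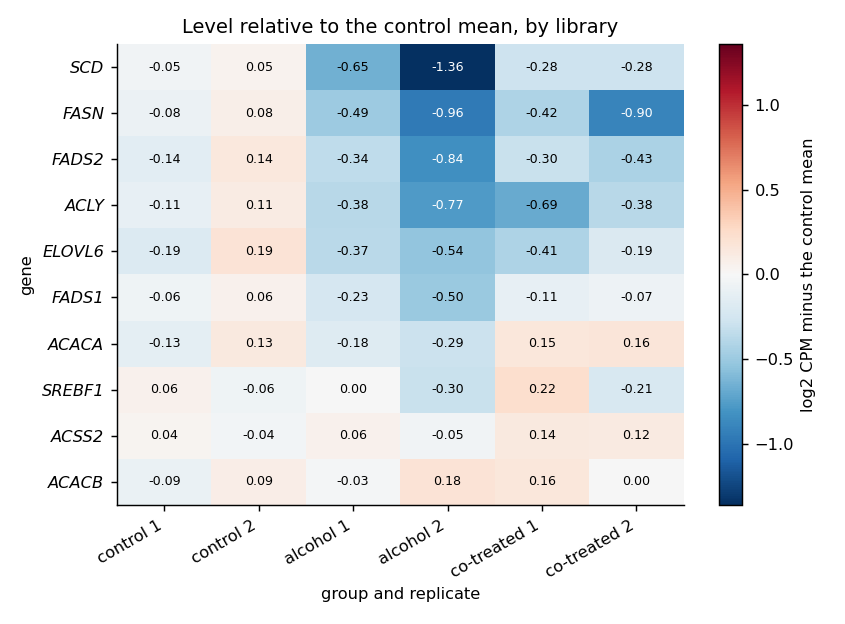
Log2 CPM of each gene (rows) in each library (columns) minus the mean of the 2 control libraries, with blue below and red above control. On this scale alcohol replicate 2 is the lowest library for 9 of the 10 genes, ACACB being the exception.

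The second comparison set the co-treated cells against control. FASN had a log2 difference of -0.65 (SE 0.17, adjusted p = 0.129) and ACLY one of -0.53 (SE 0.15, adjusted p = 0.157). FADS2 differed by -0.37 (SE 0.16, adjusted p = 0.337) and SCD by -0.28 (SE 0.18, adjusted p = 0.56). Both co-treated libraries were below both control libraries for these 4 genes. ELOVL6 and FADS1 overlapped control on FPKM but not on CPM. ACACA and ACSS2 were above control in both co-treated libraries, by 0.15 (SE 0.12, adjusted p = 0.675) and 0.13 (SE 0.12, adjusted p = 0.721). With edgeR 0 of 10 were called, against 0.362% of all genes, and DESeq2 also called 0. At an unadjusted p under 0.05, 3 of 10 were lower (FASN, ACLY and FADS2), against 6.37%, and this count was 1 without co-treated replicate 1. On FPKM 4 of 10 were below control without overlap, against 16.3%, and 2 were above it (ACACA and ACSS2), against 27.1%. The median log2 difference of the 10 was -0.19, and -0.07 without control replicate 2.

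The third comparison asked what losartan changed in alcohol-exposed cells. SCD was higher in both co-treated libraries than in both alcohol libraries, by 0.68 on the log2 scale (SE 0.18, adjusted p = 0.587), a fitted fold of 1.61. Without alcohol replicate 2 the SCD difference was 0.37, and without alcohol replicate 1 it was 1.07 with an adjusted p of 0.00878. ACACA was higher by 0.39 (SE 0.13, adjusted p = 0.836) and FADS1 by 0.27 (SE 0.12, adjusted p = 0.897), also with no overlap. FASN differed by 0.07 (SE 0.18, adjusted p = 0.978) and ACLY by 0.04 (SE 0.15, adjusted p = 0.986), and both turned negative, to -0.15 each, without alcohol replicate 2. With edgeR 0 of 10 were called, against 0.0134% of all genes, and DESeq2 also called 0. At an unadjusted p under 0.05, 3 of 10 were higher (SCD, ACACA and FADS1), against 2.84%, and this count was 1 without alcohol replicate 2. On FPKM 4 of 10 (these and ACSS2) were higher without overlap, against 18.0%. The median log2 difference of the 10 was 0.16. It was 0.07 when alcohol replicate 2 was left out and 0.32 when alcohol replicate 1 was. This comparison and the first share the alcohol libraries, so a low alcohol library enters both with opposite sign.

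**Figure D3:**
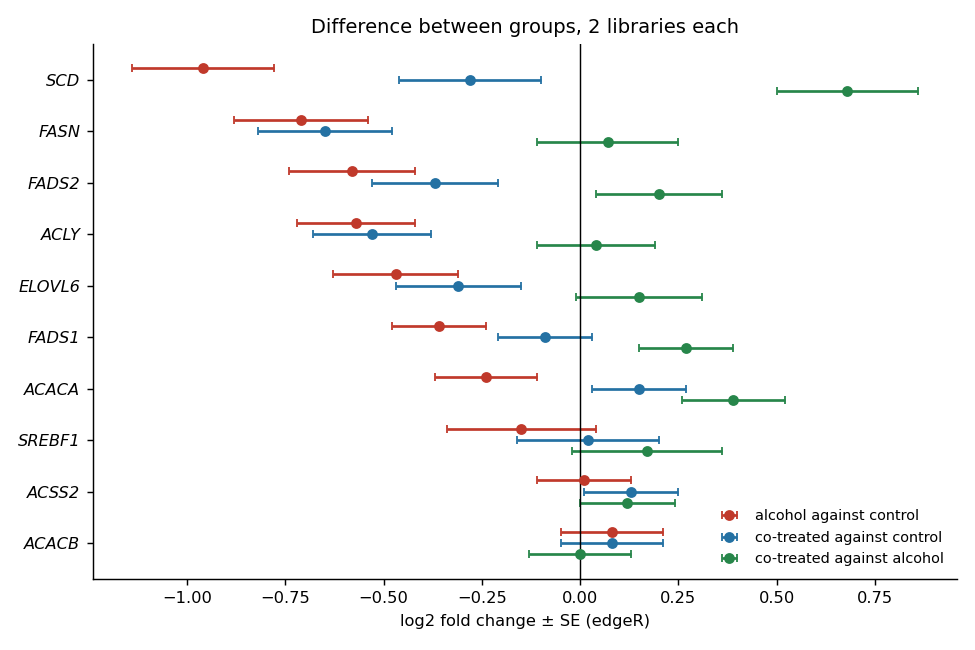
Log2 fold change with its SE (horizontal axis) of each gene (rows) for 3 comparisons that share libraries, from the edgeR fit of all 6. SCD is at -0.96 for alcohol against control and 0.68 for co-treated against alcohol, while FASN is at -0.71 and 0.07.

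The fourth comparison set the mean of both alcohol-exposed groups against control. FASN had a log2 difference of -0.68 (SE 0.15, adjusted p = 0.0575), ACLY of -0.55 (SE 0.13, adjusted p = 0.0755) and SCD of -0.62 (SE 0.15, adjusted p = 0.0817). FADS2 differed by -0.48 (SE 0.13, adjusted p = 0.126), and for these 4 genes all exposed libraries were below both control libraries. ELOVL6 was at -0.39 (SE 0.13, adjusted p = 0.208) and FADS1 at -0.23 (SE 0.11, adjusted p = 0.377). With edgeR 0 of 10 were called, against 0.556% of all genes. DESeq2 called 3 of the 10 (FASN, SCD and ACLY) and 154 genes in all. At an unadjusted p under 0.05, 5 of 10 were lower, against 7.05%, and this count was 3 without control replicate 2. On FPKM 4 of 10 were below control without overlap, against 8.39%. The median log2 difference of the 10 was -0.31, and -0.17 without control replicate 2. An exact permutation test on a single gene could not go below an exact two-sided p of 0.0667 in this design, or of 0.333 with 2 libraries a group.

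The balance between members was taken as ratios of FPKM within a library, given as a description. SCD to FASN was 3.61 and 3.43 in control libraries, 3.15 and 2.68 under alcohol and 3.88 and 5.42 under co-treatment, so the groups did not overlap. SCD to its relative SCD5 was 6.22 and 6.0 in control libraries, 3.94 and 2.35 under alcohol and 4.32 and 4.61 under co-treatment. ACLY to ACSS2, the citrate against the acetate source of acetyl-CoA, was 1.4 and 1.73 in control libraries, 1.15 and 0.93 under alcohol and 0.873 and 1.09 under co-treatment. Both exposed groups were below control in that ratio and overlapped each other. ACACB to ACACA was 1.23 and 1.16 in control libraries, 1.35 and 1.67 under alcohol and 1.21 and 1.06 under co-treatment, highest in the alcohol libraries.

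**Figure D4:**
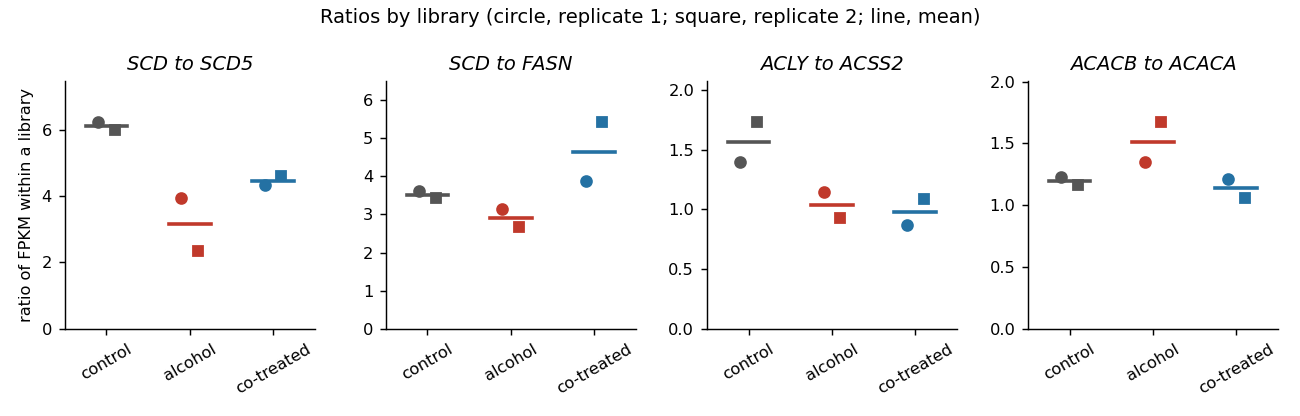
Ratios of FPKM (vertical axis, starting at 0) between pairs of genes in each library, by group, with circles for replicate 1, squares for replicate 2 and lines for the mean. ACLY to ACSS2 is 1.4 and 1.73 in control and at most 1.15 in the exposed libraries.

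Across the 6 libraries the 6 genes with an unadjusted p under 0.05 for alcohol against control correlated with each other at r of 0.71 to 0.99 in log2 CPM (15 pairs, median 0.83). Over all 45 pairs of the 10 genes r ran from -0.56 to 0.99 with a median of 0.52. The 6 genes were chosen by a group difference in these same libraries, and all were lower under alcohol. Positive correlation among them was therefore built in by the choice, and their higher median is not a separate result. The libraries and the group differences are shared by all pairs, and no test was made. The genes most like FASN among 6513 genes with a mean log2 CPM of at least 5 were CLCN6 (r = 0.997), AIMP2 (0.983) and SEPT10 (0.981), and 31 genes were over 0.95. Those most like SCD were PCNA (0.993), ANAPC7 (0.989) and FADS1 (0.988), with 32 over 0.95.

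Genes around the route were read from fixed lists, with log2 differences for both exposed groups against control. Over all genes tested, 7.05% were lower and 6.48% higher at an unadjusted p under 0.05 in this comparison. Counts of 1 gene in a list are near those shares, and counts of 1 or 2 in lists this short are not read as a result. Of the 11 genes tested that control SREBP1, 2 were lower and 1 higher at an unadjusted p under 0.05, and 0 were called. INSIG1, which holds SREBP in the endoplasmic reticulum and is itself a target, was at -0.62 (SE 0.17, adjusted p = 0.126), and SCAP, the escort of SREBP, at 0.39 (SE 0.14, adjusted p = 0.222). SREBF2 had the highest FPKM of that list, at 72.1 ± 1.92 in control and 66.9 ± 6.59 in alcohol (SD, n = 2). Of 8 genes of NADPH and citrate supply 1 was lower, MDH1 at -0.35 (SE 0.12, adjusted p = 0.186). SLC25A1, the mitochondrial citrate carrier, was at -0.27 (SE 0.16, adjusted p = 0.477), and CS, citrate synthase, at 0.10 (SE 0.10, adjusted p = 0.713).

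Of 15 other genes of elongation, desaturation and mitochondrial synthesis 2 were lower, FADS3 at -0.61 (SE 0.17, adjusted p = 0.119) and HACD1 at -0.39 (SE 0.15, adjusted p = 0.262), and 1 was higher. ELOVL5, which lengthens polyunsaturated chains, was at -0.16 (SE 0.11, adjusted p = 0.556). Its FPKM was 30.2 ± 1.12 in control, 24.4 ± 0.7 under alcohol and 30.7 ± 1.89 under co-treatment (SD, n = 2). The adjusted p of ELOVL5 was 0.325 for alcohol against control and 0.836 for co-treated against alcohol. Of 10 genes of acyl-CoA activation, malonyl-CoA removal and AMPK 1 was higher, the AMPK subunit PRKAG1 at 0.25 (SE 0.11, adjusted p = 0.333). PRKAB2 was at 0.23 (SE 0.11, adjusted p = 0.41), PRKAG2 at -0.15 (SE 0.11, adjusted p = 0.614) and ACSL4 at -0.20 (SE 0.12, adjusted p = 0.516). Of 13 genes of triglyceride and phospholipid assembly 1 was higher, AGPAT1 at 0.22 (SE 0.10, adjusted p = 0.369). PLIN2, a coat protein of lipid droplets, was at 0.20 (SE 0.10, adjusted p = 0.413) and PNPLA3 at -0.64 (SE 0.30, adjusted p = 0.381).

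The cholesterol synthesis genes, driven by the related factor SREBP2, had the lowest medians of the lists for alcohol against control and for both exposed groups against control. Of 17 tested, 14 were lower at an unadjusted p under 0.05 in the fourth comparison, and 2 were called: HMGCS1 at -0.91 (SE 0.16, adjusted p = 0.0267) and FDFT1 at -0.60 (SE 0.12, adjusted p = 0.0441). HMGCS1, which makes the precursor of mevalonate, was at 91.95 and 112.61 FPKM in control libraries, 59.1 and 41.55 under alcohol and 53.75 and 69.41 under co-treatment. FDPS was at -0.67 (SE 0.15, adjusted p = 0.0575). This list was also chosen with earlier results of these data known, so its count of 14 describes these libraries only. Its median was -0.54, beside -0.31 for the fatty acid synthesis genes. For co-treated against alcohol the medians were 0.14 and 0.16. The HMGCS1 call held in 7 of 13 other settings and the FDFT1 call in 5.

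Of 16 genes of fatty acid oxidation, the opposite route, 0 were lower and 2 higher at an unadjusted p under 0.05, against 7.05% and 6.48% of all genes. The 2 were ACADS at 0.68 (SE 0.22, adjusted p = 0.187) and HADH at 0.33 (SE 0.12, adjusted p = 0.241), and 0 were called. HADHA was at 0.13 (SE 0.11, adjusted p = 0.654) and FABP3 at -0.31 (SE 0.18, adjusted p = 0.477). The median of the list was 0.12, on the other side of 0 from that of the synthesis genes. The difference between the lists was not tested.

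**Figure D5:**
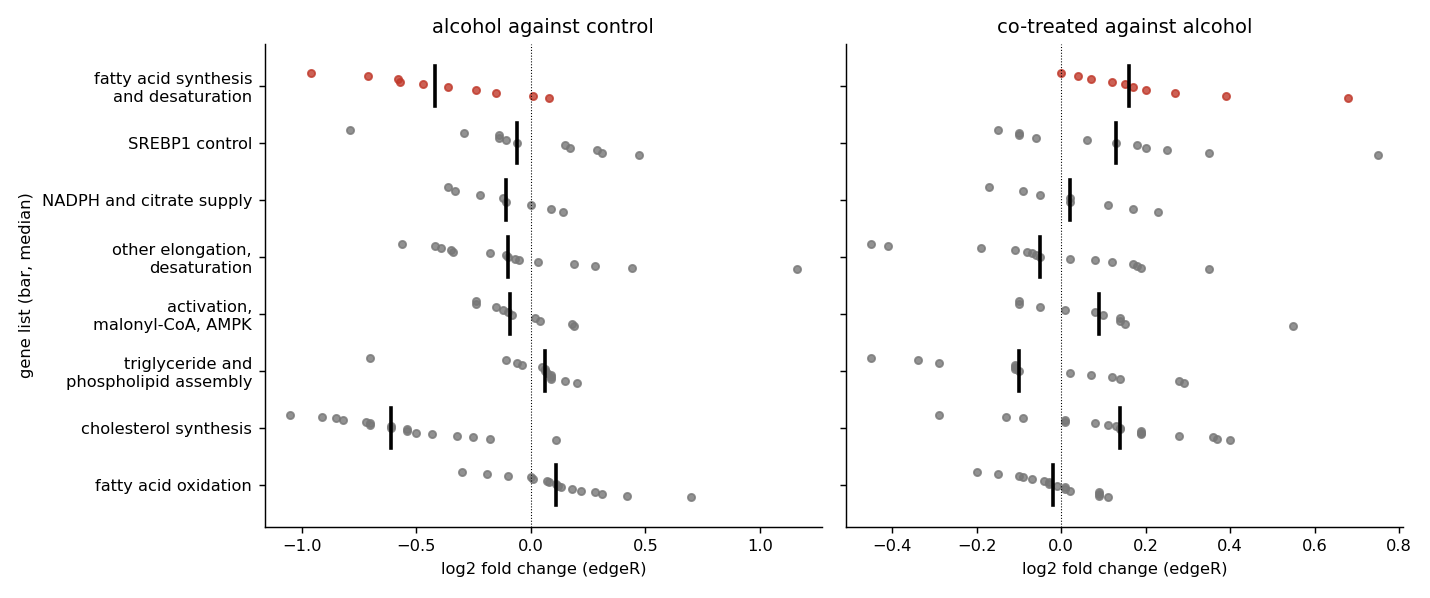
Log2 fold change (horizontal axis) of each gene of 8 lists (rows) for alcohol against control and for co-treated against alcohol, with each gene a point and the list median a bar. The fatty acid synthesis genes have medians of -0.42 and 0.16, the cholesterol genes of -0.61 and 0.14 and the oxidation genes of 0.11 and -0.02.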

How the data were processed

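Per library, the authors' tables give every gene an expected count and an FPKM value. The deposited FPKM corrects the expected count for transcript length and sequencing depth. Of the deposited expected counts 33.9% were not whole, and all were rounded for testing. The submitters' processing notes name HISAT2 2.0.4, Bowtie2 2.2.5, RSEM 1.2.12 and hg38. The quasi-likelihood F test of edgeR 4.0.16 (R 4.3.3) was run two-sided on all 6 libraries in 1 fit, with TMM normalization, filterByExpr and Benjamini-Hochberg adjustment at 0.05 over 14926 genes. The paper gives fold and probability thresholds in place of such a test. Groups follow the treatment label. The SE was obtained from each F value as the size of the log2 difference over the root of F.

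The members and gene lists were chosen with earlier results of these data known. Named from each other list were the genes called, the 2 of highest FPKM and the 2 with the smallest p for both exposed groups against control. The counts sum to 4898287 to 5051448 per library, and the floor of 3 counts covers counting error only. Promoters, gene names and coordinates came from RefSeq GRCh38.p14, and exon overlaps from GENCODE v29. The alternatives were DESeq2 1.42.0, RLE size factors, a replicate block, omission of the expression filter, a minimum of 10 counts in each library, only the groups compared, limma 3.58.1 on log2(FPKM + 1) and log2(FPKM + 0.1), and each library left out in turn. The count at an unadjusted p and the settings for genes outside the 10 were added after seeing the data. The test was also tried on counts simulated for alcohol against control, with 198 of 14671 genes changed in either direction. It called 95% of the genes changed by 2 on the log2 scale and 65.3% of those changed by 1. A gene that was not called may therefore still differ. The test also made 21 false calls, so a gene that was called may not differ.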

Additional observations from a re-analysis of the deposited data

How the results depend on the processing

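With 2 libraries a group, calls depended on the setting, and the causes were not tested. In the order alcohol against control, co-treated against control, co-treated against alcohol and both exposed groups against control, edgeR called 10, 54, 2 and 83 genes. In that order the calls were 68, 113, 5 and 154 with DESeq2, 2, 15, 1 and 27 with no expression filter, 26, 78, 0 and 144 with at least 10 counts in every library, 0, 1, 1 and 0 with limma on log2(FPKM + 1), and 0, 1, 1 and 2 on log2(FPKM + 0.1). With only the groups compared they were 3, 158 and 4, and the fourth comparison has no such fit because it uses all groups. Leaving out 1 library gave 1 to 220, 2 to 184, 1 to 24 and 6 to 407. Among the 10 genes DESeq2 called 2 for alcohol against control and 3 for both exposed groups, and at least 10 counts gave 1 and 1. Leaving out 1 library gave 0 to 4 for both, and 0 to 1 for co-treated against alcohol, with the highest of each without alcohol replicate 1.

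With the replicate number as a block the calls were 48, 136, 5 and 256 genes, with 1 of the 10 genes for alcohol against control and 2 for both exposed groups. The deviations of same-numbered libraries correlated at 0.114, -0.016 and 0.041, so the numbers were not taken to pair the samples.

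Among the 10 genes, counts at an unadjusted p under 0.05 ran from 4 to 7, 1 to 4, 1 to 4 and 3 to 6 when 1 library was left out, and the fourth was 3 with limma on log2(FPKM + 0.1). Their median log2 difference ran, in the same order, from -0.52 to -0.27, -0.24 to -0.07, 0.07 to 0.32 and -0.42 to -0.17. Signs that turned when a library was left out were those of small differences. For alcohol against control ACACB ran from -0.03 to 0.19 and ACSS2 from -0.04 to 0.06. For co-treated against control ACACB ran from -0.01 to 0.18 and SREBF1 from -0.21 to 0.22. For co-treated against alcohol ACLY ran from -0.15 to 0.23, ACACB from -0.11 to 0.11, FASN from -0.19 to 0.31, FADS2 from -0.02 to 0.46 and SREBF1 from -0.07 to 0.37. For both exposed groups ACACA ran from -0.17 to 0.11, ACACB from -0.01 to 0.18 and SREBF1 from -0.18 to 0.04. ACACB in co-treated against alcohol was also at 0.0014 with at least 10 counts, 0.0035 with the block and 0.01 with both limma fits.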
